A study of Mus musculus with 6 samples.

Results

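The mouse Hox cluster genes encode homeodomain transcription factors, and they were taken here as every row of the count table whose symbol is Hoxa, Hoxb, Hoxc or Hoxd followed by a number. The rule found 39 of the 24498 genes in the table, 11 in the Hoxa cluster, 10 in Hoxb, 9 in Hoxc and 9 in Hoxd. Their RNA was measured by RNA-seq of sorted epithelial cells from the mouse prostate, where the secretory luminal cells need androgen. Of the 39 genes, 7 had no count in any library (Hoxb1, Hoxc4, Hoxc5, Hoxc6, Hoxc11, Hoxc12 and Hoxc13), and 25 passed a filter on low counts and were tested. The other 14 were not tested, and counts over the 25 are not counts over the whole family.

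Hox genes lie in 4 clusters on different chromosomes, and the number in each name gives the position in the cluster, from anterior-acting genes at the low end to posterior-acting genes at the high end. Genes with the same number in different clusters are paralogues and share most of the homeodomain. The cluster ends with the high numbers pattern the caudal trunk, the limbs and the urogenital sinus, from which the prostate buds. In mouse mutants, Hoxa13 and Hoxd13 affect the growth and branching of the prostate, Hoxa10 affects the identity of its anterior lobes, and Hoxb13 acts with Hoxd13 in ventral prostate differentiation. Hoxb13 stays on in the adult gland and is widely used as a marker of prostate epithelium.

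The 3 groups held 2 libraries each and are named here Nkx intact, Nkx castrate and Clu intact, with the replicate number after the group name for a library. The Nkx mice carried an inducible CreER(T2) driver labelled Nkx together with the EYFP reporter allele Gt(ROSA)26Sortm1(EYFP)Cos, and the Clu mice carried Clu-CreER(T2) with the tdTomato reporter allele Gt(ROSA)26Sortm14(CAG-tdTomato)Hze. Clu is the gene of clusterin, a secreted chaperone. All mice were males of 7 to 13 weeks; at 8 weeks they were castrated (Nkx castrate) or left intact (Nkx intact and Clu intact), and marker-positive cells were sorted 4 weeks later. Both driver and reporter therefore differ between the Nkx and Clu groups, and the cells are those marked through each driver. No castrated Clu group is analysed here. Whether the 2 libraries of a group are separate animals is not in the labels; p-values here measure only the spread between libraries, which may be technical.

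The libraries held 10220118 to 17412874 counts. Levels are given as counts scaled to a common library size (CPM) with edgeR's TMM factors, so that 1 count was 0.0561 to 0.0988 CPM. The 6 epithelial markers (such as Epcam and Krt8) summed to 3465 to 10482 CPM and none was at 0. Nkx castrate 1 stood apart: it had 18516 genes with a count against 15045 to 15778 in the other 5 libraries, and the 20 markers of fibroblasts and smooth muscle summed to 2578 CPM in it, against 615 CPM in Nkx castrate 2 and against 725 to 1153 CPM in the 4 intact libraries. The 19 leukocyte markers summed to 677 CPM in Nkx castrate 1 and to 80.5 to 291 CPM elsewhere. For the 12 endothelial markers the sum was 1111 and 458 CPM in the Clu intact libraries, 466 CPM in Nkx castrate 1 and 60.5 to 93.7 CPM in the other 3. None of these non-epithelial markers was at 0 in every library.

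Sequence upstream of the start was read for the genes the results turn on, since Hoxa13 and Hoxd12 were the 2 members called in the edgeR fit of all libraries described below, and Hoxd13 lies beside Hoxd12 and was not called in it. The windows are the 250 bases before the start in RefSeq's promoter table for GRCm38.p6, which held 22 of the 39 members. Each is printed 5′ to 3′ on the strand of the gene, with CG pairs in capitals. Hoxa13 lies on the minus strand at chr6:52260881-52261130, Hoxd12 on the plus strand at chr2:74674763-74675012 and Hoxd13 on the plus strand at chr2:74667975-74668224.
Hoxa13: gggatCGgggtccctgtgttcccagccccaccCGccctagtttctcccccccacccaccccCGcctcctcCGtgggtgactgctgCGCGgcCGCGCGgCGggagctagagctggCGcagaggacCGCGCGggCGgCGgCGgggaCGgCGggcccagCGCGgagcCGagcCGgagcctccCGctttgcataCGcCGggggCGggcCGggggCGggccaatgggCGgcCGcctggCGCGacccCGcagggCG
Hoxd12: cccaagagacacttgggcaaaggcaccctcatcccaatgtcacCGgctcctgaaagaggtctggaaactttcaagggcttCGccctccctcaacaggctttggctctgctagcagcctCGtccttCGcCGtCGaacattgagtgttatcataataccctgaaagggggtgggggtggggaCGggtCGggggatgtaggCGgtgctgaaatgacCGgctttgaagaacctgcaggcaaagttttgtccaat
Hoxd13: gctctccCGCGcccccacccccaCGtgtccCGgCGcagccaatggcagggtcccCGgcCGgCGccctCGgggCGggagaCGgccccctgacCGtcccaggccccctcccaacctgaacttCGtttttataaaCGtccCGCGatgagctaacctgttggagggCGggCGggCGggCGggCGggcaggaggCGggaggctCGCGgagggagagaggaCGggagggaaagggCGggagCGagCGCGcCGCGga
The Hoxa13 window held 35 CG pairs at 80.0% G or C, the Hoxd13 window 31 at 74.4%, and the Hoxd12 window 10 at 55.6%. Over all 32851 windows of the same length the median was 6 CG pairs and 52.4% G or C. CCAAT, searched on both strands, was found once in the Hoxa13 window, once in the Hoxd13 window and at 2 places in the Hoxd12 window, and 33.8% of all windows held it. TATAAA was found in the Hoxd13 window and in 12.4% of all windows. TGATTNAT (a Hox and Pbx composite motif), TTTATNG (a posterior Hox motif) and AGAACA (part of an androgen receptor motif) were found in none of the 3 windows and in 2.82%, 9.81% and 16.1% of all windows. These matches describe letters only.

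The Hox genes that were on came from the Hoxa, Hoxb and Hoxd clusters, and the highest levels sat at the posterior ends. With expression defined as at least 1 CPM in both libraries of a group, 21 members were expressed in Nkx intact, 21 in Nkx castrate and 23 in Clu intact, with 20 expressed in all 3 groups. In the order Nkx intact, Nkx castrate and Clu intact, 8, 7 and 8 of the 11 Hoxa genes, 8, 8 and 8 of the 10 Hoxb genes and 5, 6 and 7 of the 9 Hoxd genes were expressed. No Hoxc gene was. Hoxc8, Hoxc9 and Hoxc10 had 6, 6 and 5 counts in Nkx castrate 1, the library with the most stromal and leukocyte marker RNA, and 0 in the other 5 libraries, which allows up to 0.296 CPM in each of those at a floor of 3 counts.

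By position, only Hoxa3 and Hoxb3 of the 8 anterior genes (positions 1 to 3) were expressed, in all 3 groups. Of the 15 central genes (positions 4 to 8), 9, 9 and 10 were expressed, and of the 16 posterior genes (positions 9 to 13), 10, 10 and 11. The 3 members not expressed in the same way in all groups were Hoxa6, which was below 1 CPM in Nkx castrate 2, Hoxd4, which was below 1 CPM in Nkx intact 1, and Hoxd12, which passed 1 CPM in both libraries only in Clu intact. Hoxa2, with at most 23 counts in a library, was tested as well. Among the anterior genes too low to test, the highest count in any library was 15 for Hoxb2, 3 for Hoxd1 and 3 for Hoxd3.

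**Figure D1:**
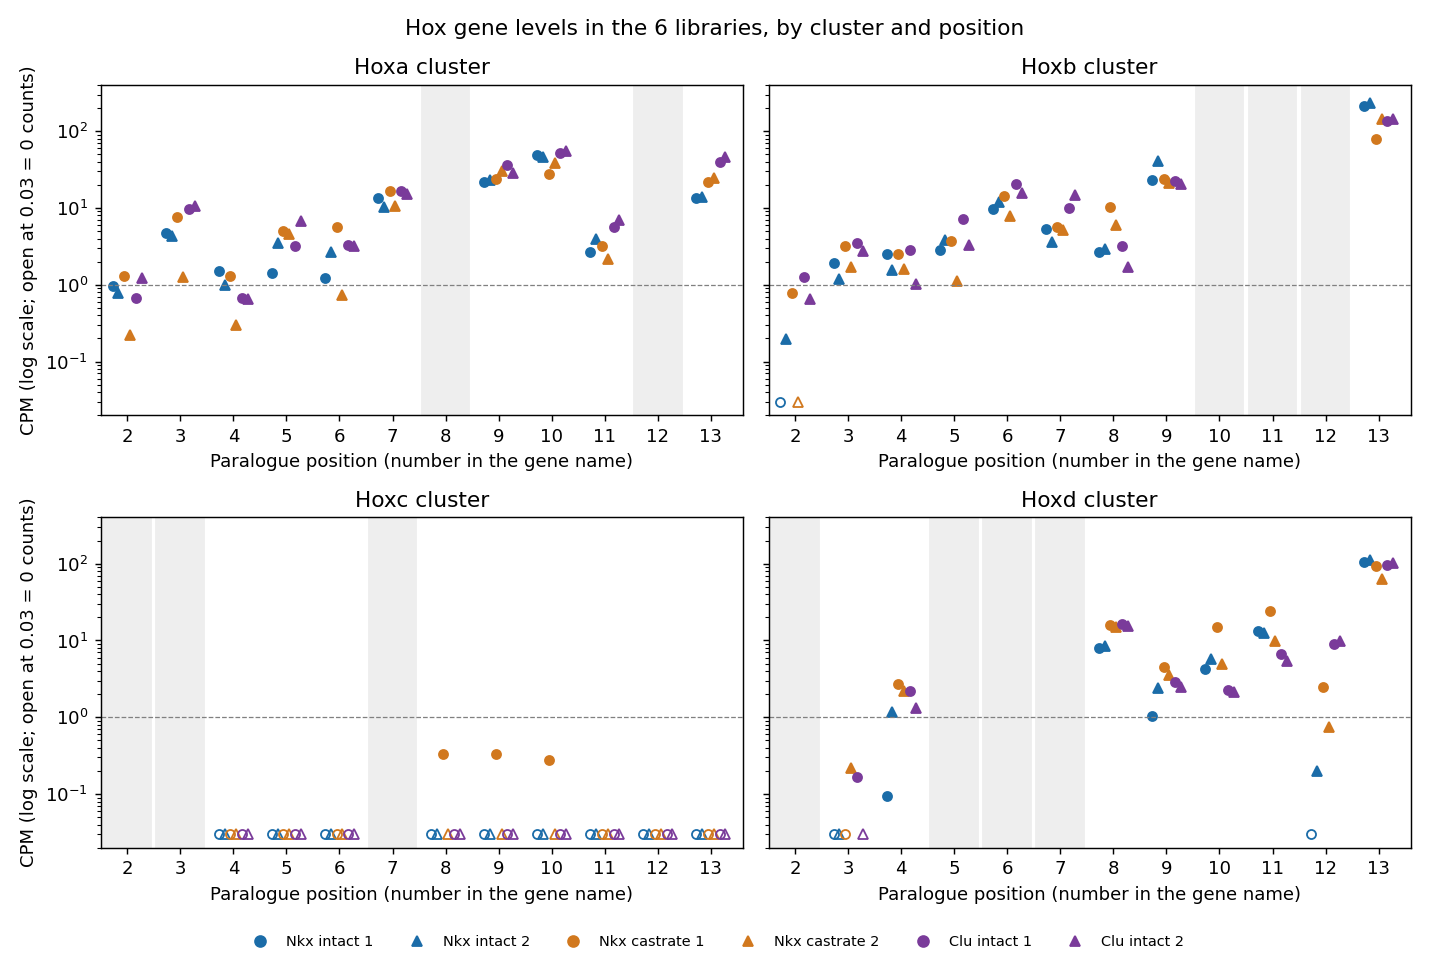
CPM of each Hox gene on a log axis against its number in the cluster from 2 upward, with a panel for each cluster, a colour for each group and a shape for each replicate. Open symbols at the bottom are libraries with 0 counts, grey bands are numbers with no gene in the table, and the dashed line is 1 CPM. The highest points in the Hoxb and Hoxd panels are at position 13, and the Hoxc panel is near empty.

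Single genes were ranked per kilobase of exon, with lengths from the GENCODE M21 annotation. On this scale the means over the 3 groups were 71.7 CPM per kilobase for Hoxb13, 38.2 for Hoxd13, 13.7 for Hoxa10, 10.8 for Hoxa13, 9.89 for Hoxb9 and 6.78 for Hoxb6. Hoxb13 and Hoxd13 thus headed the list, and all but Hoxb6 of these 6 are posterior genes. In Nkx intact, Hoxb13 stood at 95 and 107 CPM per kilobase and Hoxd13 at 42.5 and 45. In Nkx castrate the order of these genes differed between the libraries, with Hoxb13 at 35.4 and Hoxd13 at 37.4 CPM per kilobase in Nkx castrate 1, and 65.7 and 25.1 in Nkx castrate 2. With the longest transcript as the length, Hoxa9 took the place of Hoxb6 and the other 5 kept theirs.

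Summed over a cluster, Hoxa RNA was higher in Clu intact than in both Nkx groups, while Hoxb RNA was highest in Nkx intact. The Hoxa sum stood at 110.2 and 109.6 CPM in Nkx intact, at 114 and 114 CPM in Nkx castrate and at 169.8 and 174 CPM in Clu intact. The Clu intact libraries lay above the other 4, and the ratio of the means was 1.56 to Nkx intact and 1.51 to Nkx castrate. The Hoxb sum stood at 258 and 303 CPM in Nkx intact, at 142 and 189 CPM in Nkx castrate and at 208 and 204 CPM in Clu intact. Both Nkx intact libraries lay above the other 4, and without Hoxb13 the groups overlapped, at 48.1 and 66.7 CPM in Nkx intact, at 64.4 and 44.4 CPM in Nkx castrate and at 71.5 and 59.9 CPM in Clu intact. These sums are not corrected for gene length, so they are set side by side only between libraries, and they carry no test.

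The Hoxd sum overlapped between groups, at 132 and 142 CPM in Nkx intact, at 158 and 99 CPM in Nkx castrate and at 134 and 138 CPM in Clu intact. Without Hoxd13 it stood at 26.7 and 30.5 CPM in Nkx intact, at 64.8 and 36.7 CPM in Nkx castrate and at 39.5 and 36.6 CPM in Clu intact, so that both Nkx intact libraries were the lowest. Nkx castrate 1, with its high stromal marker RNA, held the highest value.

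By position, the posterior sum stood at 443 and 497 CPM in Nkx intact, at 318 and 343 CPM in Nkx castrate and at 410.0 and 422 CPM in Clu intact, and no groups overlapped. The central sum stood at 48.8 and 50.9 CPM in Nkx intact, at 84.1 and 55.1 CPM in Nkx castrate and at 86.1 and 78.5 CPM in Clu intact. The anterior sum stood at 7.94 and 6.52 CPM in Nkx intact, at 13.2 and 3.55 CPM in Nkx castrate and at 16.0 and 15.9 CPM in Clu intact. Both intact groups were thus apart from each other at every level of position, with the central and anterior sums higher in Clu intact. The posterior sum was higher in Nkx intact with Hoxb13 and lower without it, at 234 and 261 CPM in Nkx intact against 273 and 278 CPM in Clu intact. Position 13 alone (Hoxa13, Hoxb13 and Hoxd13) made up 65.7% and 65.2% of all Hox CPM in Nkx intact, against 46.4% and 57.7% in Nkx castrate and against 53.0% and 56.5% in Clu intact.

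**Figure D2:**
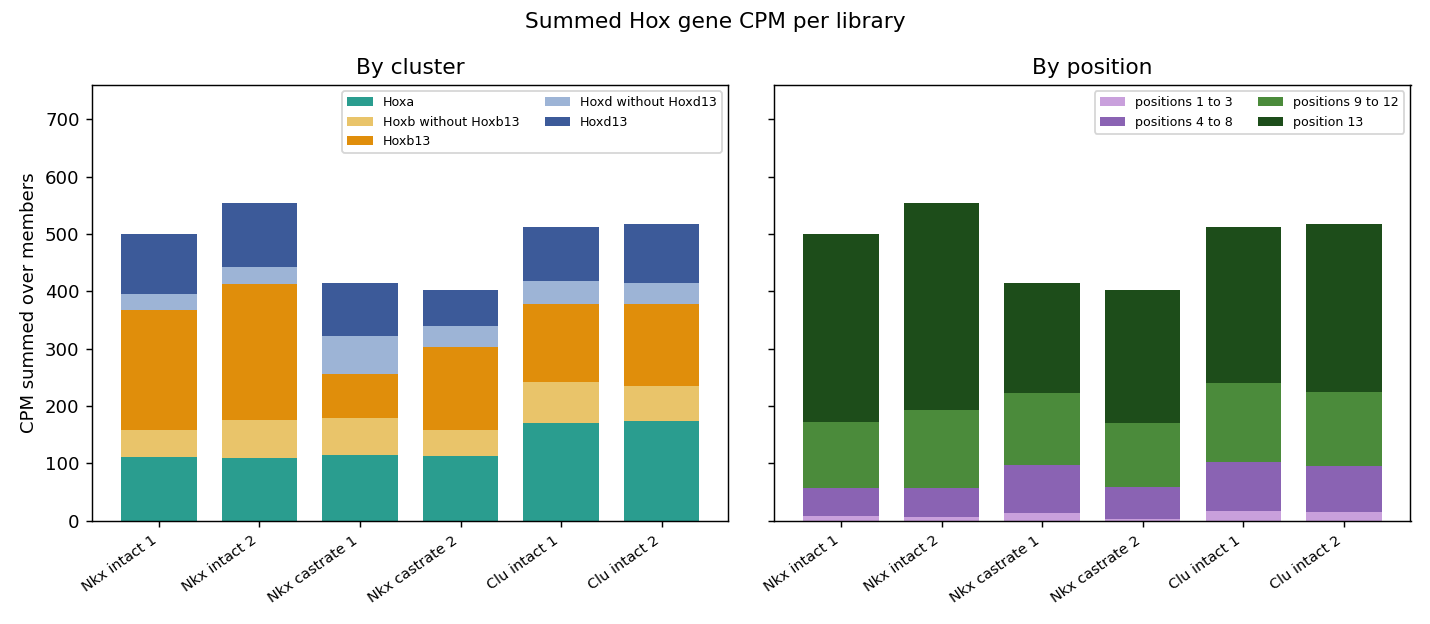
Stacked bars of CPM summed over Hox genes in each of the 6 libraries, by cluster with Hoxb13 and Hoxd13 set apart (left) and by position with position 13 set apart (right). The whole bar reaches 500.1 to 554 CPM for Nkx intact, 402 to 415 CPM for Nkx castrate and 512 to 517 CPM for Clu intact; the Hoxc sum, at most 0.954 CPM, is not drawn. The Hoxb13 block is tallest in the Nkx intact libraries and the Hoxa block in the Clu intact libraries.

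Setting Nkx castrate beside Nkx intact asked how Hox RNA differed 4 weeks after androgen was removed. No Hox gene passed the test in either direction, while Hoxb13 had the lowest log2 fold change among the members. Across all 13846 genes tested with edgeR's quasi-likelihood test and Benjamini-Hochberg adjustment, 4.02% were called higher and 4.59% lower at an adjusted p under 0.05. At an unadjusted p under 0.05, 4 Hox genes were higher (Hoxa13, Hoxb8, Hoxd8 and Hoxd12) and Hoxb13 was lower, where the shares of all genes were 11.9% and 11.6%. DESeq2 called Hoxa13 and Hoxd12 higher and Hoxb13 lower, with 7.37% and 7.18% of all genes called, and limma-voom called 0 members, with 2.93% and 4.35%. The median log2 fold change of the 25 tested members was 0.25, and that of all genes 0.05.

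Hoxb13 was at 209.6 and 236 CPM in Nkx intact, at 78.1 and 145 CPM in Nkx castrate and at 137 and 144 CPM in Clu intact. The Nkx intact libraries were the highest of the 6 and did not overlap either other group, whereas Clu intact lay between the 2 castrate libraries. The means were 223 ± 18.6 CPM in Nkx intact and, lower, 111 ± 47.3 CPM in Nkx castrate (SD, n = 2), a log2 fold change of -0.999 ± 0.28 (SE, edgeR adjusted p = 0.069, 95% interval -1.64 to -0.36). In a bulk sample, fewer cells of a type and less RNA per cell cannot be told apart. The size of the difference turned on which castrate library was kept. Set against Nkx intact, Nkx castrate 1 alone gave a log2 fold change of -1.52 and Nkx castrate 2 alone gave -0.62. With a lone castrate library, these fits hold no spread between castrate libraries, so they give sizes only. The 10 luminal secretory markers (such as Pbsn) had a sum of 15607 and 20132 CPM in Nkx intact and to 276 and 311 CPM in Nkx castrate, and the epithelial markers to 3793 and 3465 CPM against 8047 and 10482 CPM; their part in the Hoxb13 values was not tested.

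Hoxd13 was at 106 and 112 CPM in Nkx intact, at 92.9 and 62.2 CPM in Nkx castrate and at 94.8 and 102 CPM in Clu intact. The castrate libraries were the 2 lowest, and their distance from each other exceeded the gap to the intact groups. The log2 fold change of castrate against intact was -0.48 ± 0.22 (SE, edgeR adjusted p = 0.23). It was -0.23 from Nkx castrate 1 alone and -0.80 from Nkx castrate 2 alone. Hoxa10 was at 48.7 and 45.7 CPM in Nkx intact, at 28.0 and 38.7 CPM in Nkx castrate and at 52.7 and 54.6 CPM in Clu intact. Here too the castrate libraries were the lowest and overlapped neither intact group. The log2 fold change against Nkx intact was -0.50 ± 0.22 (SE, edgeR adjusted p = 0.23). For Hoxa10 it was -0.76 from Nkx castrate 1 alone and -0.29 from Nkx castrate 2 alone.

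Among the 25 tested members, 8 had both castrate libraries above both Nkx intact libraries and 3 had both below, where 25.4% and 24.6% of all genes did so. The 3 lower were Hoxb13, Hoxd13 and Hoxa10, the members with the highest levels per kilobase. Of the 8 higher, 4 were Hoxd genes (Hoxd4, Hoxd8, Hoxd9 and Hoxd12) of the 7 tested in that cluster. Hoxd8 was at 8.03 and 8.40 CPM in Nkx intact, at 16.1 and 15.1 CPM in Nkx castrate and at 16.3 and 15.3 CPM in Clu intact. The Nkx intact libraries held about the same level as each other and lay below the other 4, with a log2 fold change of castrate against intact of 0.92 ± 0.30 (SE, edgeR adjusted p = 0.11).

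Hoxb8 was at 2.68 and 2.96 CPM in Nkx intact, at 10.2 and 5.91 CPM in Nkx castrate and at 3.21 and 1.69 CPM in Clu intact, so the castrate libraries were the 2 highest. The log2 fold change was 1.51 ± 0.60 (SE, edgeR adjusted p = 0.18). Nkx castrate 1 was the highest library for Hoxb8, and for Hoxa2, Hoxa6, Hoxa7, Hoxd4, Hoxd9, Hoxd10 and Hoxd11 as well. Hoxd10 was at 14.8 CPM there against 4.95 CPM in Nkx castrate 2 and against 4.21 and 5.73 CPM in Nkx intact, and Hoxd11 at 24.1 CPM against 9.83, 13.3 and 12.6 CPM. Beside them, stromal marker RNA came to 2578 CPM in Nkx castrate 1 against 615 CPM in Nkx castrate 2, and its part in these values was not tested.

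The comparison of Clu intact with Nkx intact set cells marked through 2 different drivers in uncastrated males side by side. Hoxa13 and Hoxd12, 2 of the 25 tested members (8%), were called higher in Clu intact, and no Hox gene was called lower. The share of members called higher was near that of all genes. Of all genes, 6.29% were called higher and 5% lower. At an unadjusted p under 0.05, Hoxb7 and Hoxd8 were also higher and Hoxb13 and Hoxd11 lower, where 13.7% and 12.6% of all genes were. DESeq2 called 4 members higher and 0 lower, against 9.51% and 8.2% of all genes, and limma-voom called 1 and 0, against 4.83% and 3.97%. The comparison shares the Nkx intact libraries with that of castration.

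Hoxa13 was at 13.3 and 14 CPM in Nkx intact, at 21.6 and 24.8 CPM in Nkx castrate and at 40.0 and 45.7 CPM in Clu intact. The 3 groups did not overlap, with Clu intact highest, and the libraries of each group lay close together. The means were 13.7 ± 0.516, 23.2 ± 2.29 and 42.9 ± 4.05 CPM (SD, n = 2). Clu intact was 3.14-fold above Nkx intact, a log2 fold change of 1.65 ± 0.23 (SE, edgeR adjusted p = 0.0047). The log2 fold change stayed between 1.56 and 1.76 when any single library was left out, but the edgeR adjusted p rose above 0.05, to 0.056 without Nkx intact 1, to 0.053 without Nkx intact 2 and to 0.054 without Clu intact 2.

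Hoxd12 had 0 and 2 counts in Nkx intact, then 44 and 10 in Nkx castrate and then 107 and 106 in Clu intact, which are 0 and 0.198, 2.47 and 0.739, and 9.03 and 9.97 CPM. It was near absent from Nkx intact, low in Nkx castrate and highest in Clu intact, with no overlap between groups. Only Clu intact had more than 1 CPM in both libraries, so that its entry into the test rested on the group in which it was high. The ratio of Clu intact to Nkx intact, corrected for depth, was 97.5 with a 95% counting interval of 26.7 to 810.1, and edgeR gave a log2 fold change of 6.46 ± 1.16 (SE, adjusted p = 0.012). The log2 fold change was 5.53 without Nkx intact 1 (edgeR adjusted p = 0.078) and 9.94 without Nkx intact 2 (adjusted p = 0.051), which leaves no count in that group. The adjusted p was 0.057 without Clu intact 1, 0.072 without Clu intact 2 and 0.060 with limma-voom.

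**Figure D3:**
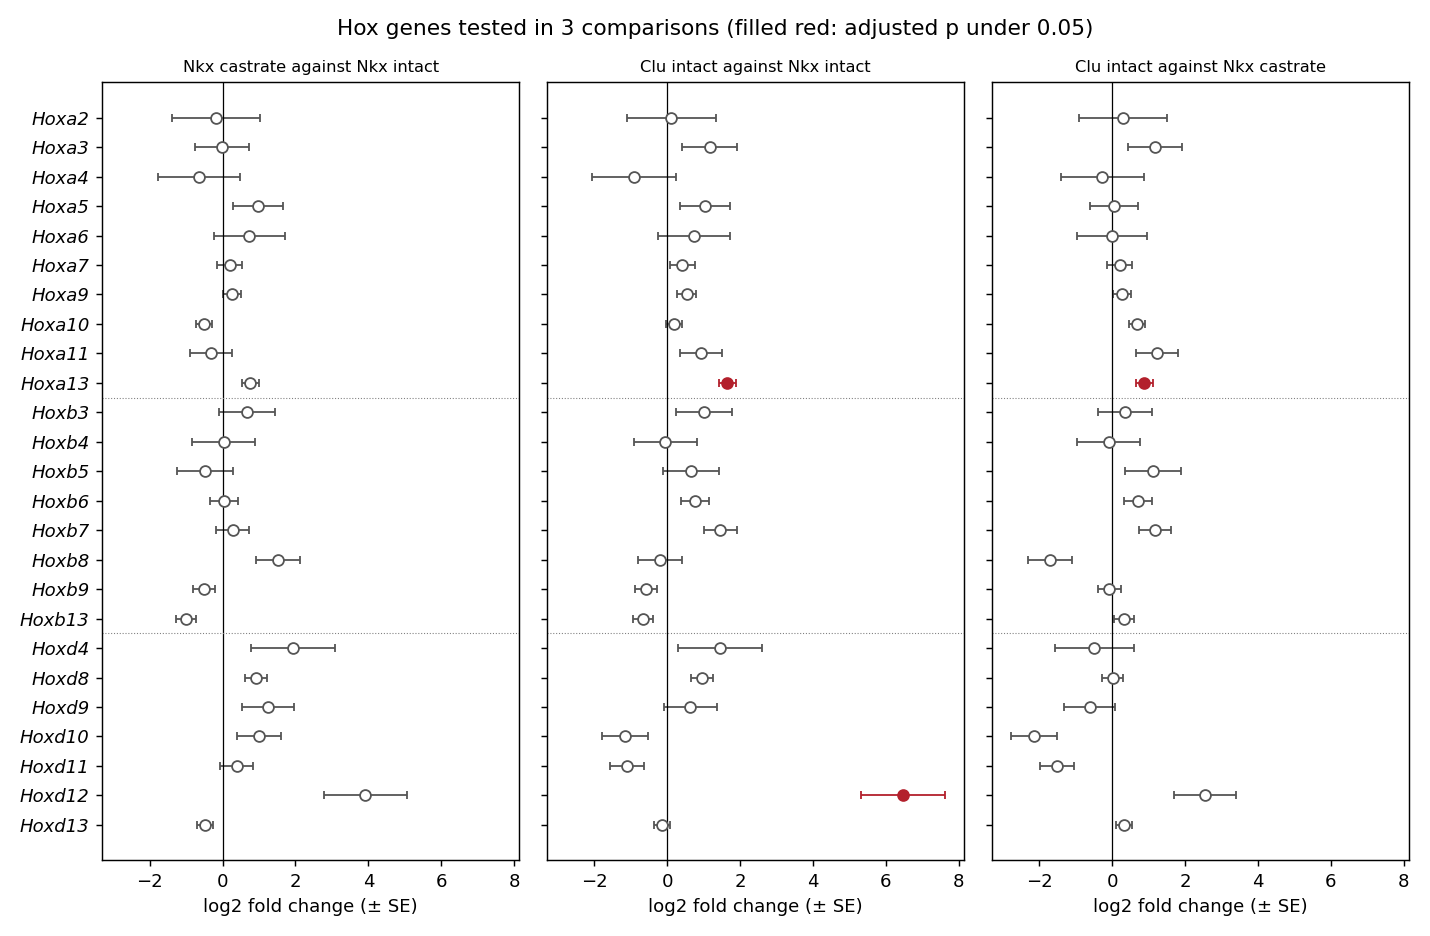
Log2 fold change with its SE (edgeR, all 6 libraries) for each of the 25 tested Hox genes in the 3 comparisons, ordered by cluster and position, with dotted lines between clusters and filled red points for an adjusted p under 0.05. Hoxa13 is filled in both comparisons with Clu intact, and Hoxd12, whose log2 fold change of 6.46 is the highest drawn, in the comparison of the intact groups.

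Hoxd12 stood apart from its neighbours on either side. Hoxd11 was at 13.3 and 12.6 CPM in Nkx intact, at 24.1 and 9.83 CPM in Nkx castrate and at 6.67 and 5.36 CPM in Clu intact, with Clu intact lowest. Its log2 fold change between the intact groups was -1.11 ± 0.46 (SE, edgeR adjusted p = 0.18). Hoxd10, at 4.21 and 5.73 CPM in Nkx intact and at 2.28 and 2.16 CPM in Clu intact, was also lower in both Clu intact libraries, with an adjusted p of 0.29. Hoxd13, on the other side, had a log2 fold change of -0.15 ± 0.22 (SE, edgeR adjusted p = 0.73), with a 95% interval of -0.65 to 0.36. The interval leaves out a change of the size seen for Hoxd12.

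In all, 14 of the 25 tested members had both Clu intact libraries above both Nkx intact libraries and 6 had both below, against 31.9% and 31.3% of all genes. The median log2 fold change of these 25 was 0.63, and that of all genes was -0.01. In the Hoxa cluster, 7 of 10 were higher without overlap and only Hoxa4 was lower. In the Hoxb cluster, Hoxb3, Hoxb6 and Hoxb7 were higher and Hoxb9 and Hoxb13 lower, and in the Hoxd cluster Hoxd4, Hoxd8, Hoxd9 and Hoxd12 were higher and Hoxd10, Hoxd11 and Hoxd13 lower. Of the 11 posterior genes tested, 6 were higher and 5 lower without overlap, with a median log2 fold change of 0.18.

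The Hoxa genes other than Hoxa13 had smaller differences, and none passed the test. Hoxa9 was at 21.9 and 23.3 CPM in Nkx intact, at 23.6 and 30.2 CPM in Nkx castrate and at 36.7 and 28.6 CPM in Clu intact. Nkx intact was lowest, the other groups overlapped, and the log2 fold change between the intact groups was 0.53 ± 0.25 (SE, edgeR adjusted p = 0.23). Hoxa10 differed by a log2 fold change of 0.18 ± 0.22 (SE, edgeR adjusted p = 0.66, 95% interval -0.33 to 0.70). Hoxa11, which acts in the limb and the reproductive tract, was at 2.68 and 3.95 CPM in Nkx intact, at 3.20 and 2.14 CPM in Nkx castrate and at 5.65 and 7.05 CPM in Clu intact, and so highest in Clu intact. Its value is uncertain, since Hoxa11os overlaps it on the other strand and the strand setting of the counting is not given in the sources used here.

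Further towards the anterior end of Hoxa, Hoxa7 ranged from 10.4 to 16.6 CPM over the 6 libraries, Hoxa5 from 1.43 to 6.77 CPM and Hoxa6 from 0.739 to 5.72 CPM. Hoxa3 was at 4.78 and 4.35 CPM in Nkx intact, at 7.69 and 1.26 CPM in Nkx castrate and at 9.70 and 10.7 CPM in Clu intact. Clu intact was highest for Hoxa3 while the castrate libraries lay on both sides of Nkx intact. Hoxa2 ranged from 0.222 to 1.29 CPM and Hoxa4 from 0.296 to 1.53 CPM, each lowest in Nkx castrate 2. Antisense transcripts overlap Hoxa3 and Hoxa7 too, so those values are uncertain in the same way.

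Among the Hoxb genes, Hoxb9 was at 23.1 and 41.5 CPM in Nkx intact, at 24.0 and 21.1 CPM in Nkx castrate and at 22.7 and 20.3 CPM in Clu intact. A single library, Nkx intact 2, was far above the other 5, and the log2 fold change between the intact groups was -0.59 ± 0.31 (SE, edgeR adjusted p = 0.28). It was -0.10 with that library left out. Hoxb7 was at 5.36 and 3.56 CPM in Nkx intact, at 5.61 and 5.17 CPM in Nkx castrate and at 9.96 and 14.6 CPM in Clu intact, highest in Clu intact with a log2 fold change against Nkx intact of 1.46 ± 0.45 (SE, edgeR adjusted p = 0.084). Hoxb6 ranged from 7.76 to 20.7 CPM, with both Clu intact libraries (20.7 and 15.6 CPM) above the other 4.

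The remaining Hoxb genes were low: Hoxb3 ranged from 1.19 to 3.54 CPM, Hoxb4 from 1.03 to 2.87 CPM and Hoxb5 from 1.11 to 7.26 CPM. Hoxb3 and Hoxb5 are overlapped by antisense transcripts and are uncertain. Of the low Hoxd genes, Hoxd9 was at 1.05 and 2.37 CPM in Nkx intact, at 4.55 and 3.55 CPM in Nkx castrate and at 2.87 and 2.45 CPM in Clu intact. Hoxd4 ranged from 0.0957 to 2.69 CPM, lowest in both Nkx intact libraries, and overlaps Hoxd3 on its own strand and an antisense transcript, so it is uncertain. For Hoxb13 the log2 fold change between the intact groups was -0.67 ± 0.27 (SE, edgeR adjusted p = 0.17), with both Clu intact libraries (137 and 144 CPM) below both Nkx intact libraries.

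Other marker RNA moved with these groups. The 8 proximal luminal markers, a list that includes Clu itself, had sums of 498 and 392 CPM in Nkx intact. In Nkx castrate they were 1035 and 1210 CPM, and in Clu intact 5833 and 6470 CPM. The sums had the same order of groups as Hoxa13 and Hoxd12, but not every member did. Clu alone gave 721 CPM of the sum in Nkx castrate 1 and 844 CPM in Nkx castrate 2. After castration edgeR called 6 of the 8 higher and 0 lower, where 4.02% and 4.59% of all genes were. Psca and Krt7 had lower means there than in Nkx intact, 5.68 against 9.73 CPM and 35.5 against 41.5 CPM, with libraries overlapping. Ly6d had its highest mean in Nkx castrate, 9.09 CPM, against 3.16 CPM in Clu intact. The sum of the 10 basal markers came to 5464 and 5639 CPM in Nkx intact, to 5150 and 3088 CPM in Nkx castrate and to 3199 and 3386 CPM in Clu intact. The sum of the 8 seminal vesicle markers was 83.6 and 151 CPM in Nkx intact and at most 4.98 CPM in the other 4 libraries. Urothelial markers, 8 in the list, summed to at most 168 CPM in the Nkx intact pair and to at least 398 CPM in every other library. Of the 6 urothelial markers tested, edgeR called 4 higher and 0 lower in Clu intact than in Nkx intact. After castration 3 of them were called higher and 0 lower. The sums rested on different members in Nkx castrate and Clu intact. In Clu intact against Nkx castrate 2 were called higher and 2 lower, where 8.82% and 8.1% of all genes were. Upk3a was at 146 and 197 CPM in Nkx castrate and at 0.337 and 0 CPM in Clu intact. The other way, Upk2 was at 0.561 and 2.37 CPM in Nkx castrate and at 20.6 and 23.5 CPM in Clu intact. Endothelial markers, whose sums are given above, had 5 of 12 called higher and 0 lower in Clu intact than in Nkx intact. Their median log2 fold change was 3.49. The part of these cell types in the Hox values was not tested.

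The comparison of Clu intact with Nkx castrate called Hoxa13 higher in Clu intact and no Hox gene lower, against 8.82% and 8.1% of all genes. It shares its libraries with the comparisons above and differs in line and in castration at once, which cannot be told apart here. Hoxa13 was 1.85-fold higher, a log2 fold change of 0.88 ± 0.23 (SE, edgeR adjusted p = 0.034). The adjusted p ended above the threshold in 5 of the 6 fits that left out a library: 0.061 without Nkx intact 1, then 0.067 without Nkx intact 2, 0.054 without Nkx castrate 1, 0.14 without Clu intact 1 and 0.28 without Clu intact 2. With only these groups in the fit it was 0.062. Hoxd12 was higher by a log2 fold change of 2.55 ± 0.86 (SE, edgeR adjusted p = 0.081). Dropping Nkx castrate 1 changed this to 3.66 and dropping Nkx castrate 2 to 1.95. A lone castrate library was left in each of these fits. The edgeR adjusted p was 0.28 without Clu intact 1 and 0.36 without Clu intact 2.

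At an unadjusted p under 0.05, Hoxa10, Hoxa13, Hoxb7 and Hoxd12 were higher in Clu intact than in Nkx castrate and Hoxb8, Hoxd10 and Hoxd11 lower, where 16.1% and 16.4% of all genes were. DESeq2 called 3 members higher and 3 lower, against 11.8% and 12.5% of all genes, and limma-voom 2 and 0, against 9.69% and 7.14%. Hoxd10 had a log2 fold change of -2.15 ± 0.64 (SE, edgeR adjusted p = 0.055) and Hoxd11 of -1.5 ± 0.46 (adjusted p = 0.064). Hoxb8, Hoxd10 and Hoxd11 passed the test without Nkx castrate 2, when the castrate group was Nkx castrate 1 alone and 12.4% of all genes were called lower, and none of them did without Nkx castrate 1. Hoxb13 gave a log2 fold change of 0.33 ± 0.27 (SE, edgeR adjusted p = 0.44), which changed to -0.04 when Nkx castrate 1 was left out and to 0.86 when Nkx castrate 2 was.

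In this comparison 8 tested members were higher in Clu intact without overlap and 5 lower, against 31.5% and 30% of all genes, with a median log2 fold change of 0.28 against -0.003. A test of any difference among the 3 groups, which uses no group as a shared control, called Hoxa13 (edgeR adjusted p = 0.0058) and Hoxd12 (adjusted p = 0.013), against 20.5% of all genes, and 9 members at an unadjusted p under 0.05, against 35.1%. Hoxb13 missed it at an adjusted p of 0.072. Without Nkx castrate 1 this test called 7 members and 33.4% of all genes, without Nkx castrate 2 it called 8 and 33.1%, and without Clu intact 2 it called 0 and 7.85%.

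**Figure D4:**
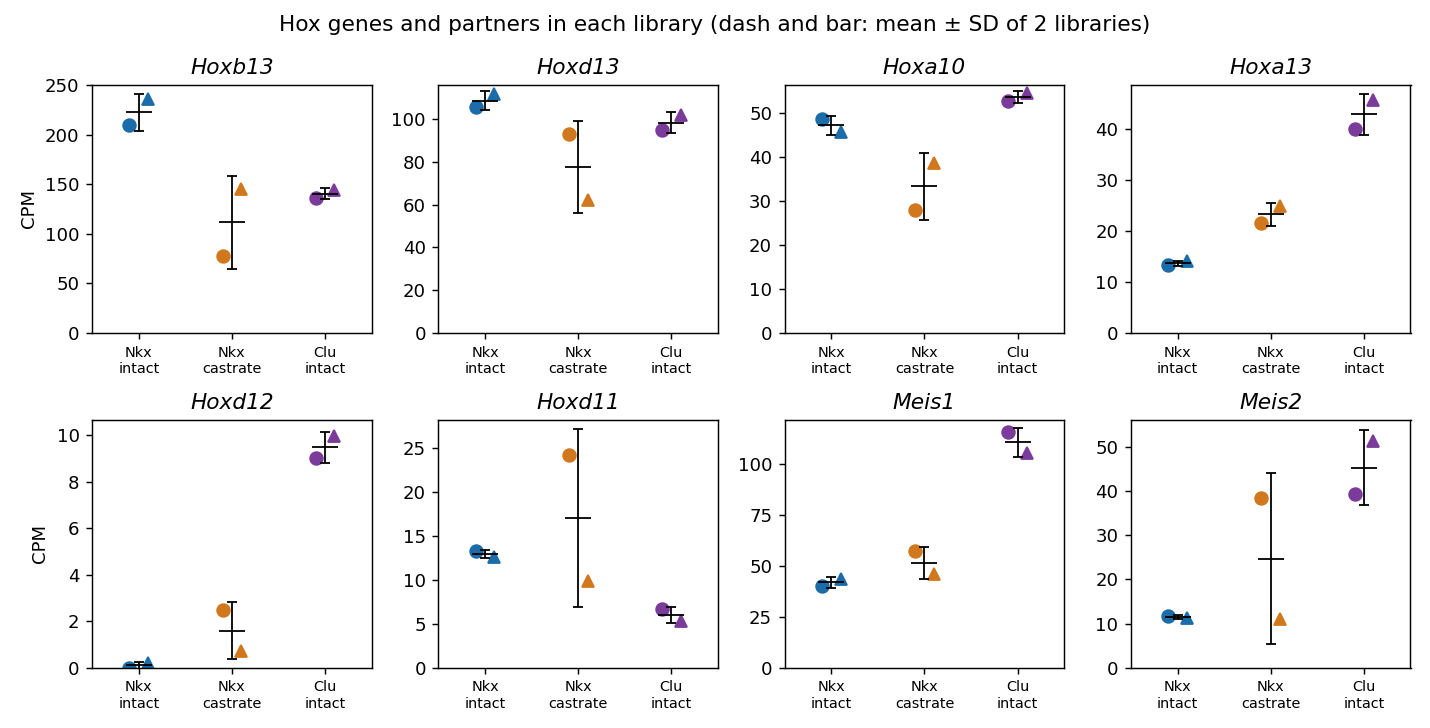
CPM of 6 Hox genes and of the cofactor genes Meis1 and Meis2 in each library (circles replicate 1, triangles replicate 2), with the dash and bar giving the mean and SD of the 2 libraries of a group. Hoxb13 is highest in Nkx intact, while Hoxa13, Hoxd12, Meis1 and Meis2 have their highest mean in Clu intact, and the Hoxb13 and Hoxd11 bars are widest in Nkx castrate.

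Hox proteins bind DNA together with TALE homeodomain proteins of the Pbx, Meis and Pknox families, and 8 of the 9 TALE genes listed were tested. After castration 1 was called higher and 0 lower. Between the intact groups 2 were higher and 0 lower in Clu intact. Against Nkx castrate, 1 was higher and 1 lower in Clu intact. The shares of all genes were 4.02% and 4.59%, 6.29% and 5%, and 8.82% and 8.1%. The median log2 fold changes of the TALE genes were 0.09, -0.007 and -0.03, against 0.05, -0.008 and -0.003 over all genes. Meis1 was at 40.1 and 43.8 CPM in Nkx intact, at 57.1 and 45.9 CPM in Nkx castrate and at 116 and 106 CPM in Clu intact. Both Clu intact libraries lay above the other 4, and Meis1 was higher there by a log2 fold change of 1.40 ± 0.20 against Nkx intact and 1.10 ± 0.20 against Nkx castrate (SE, edgeR adjusted p = 0.0046 and 0.0086).

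Meis2 was at 11.8 and 11.2 CPM in Nkx intact, at 38.4 and 11 CPM in Nkx castrate and at 39.3 and 51.3 CPM in Clu intact. Clu intact was highest, the castrate libraries differed widely, and the log2 fold change between the intact groups was 1.98 ± 0.52 (SE, edgeR adjusted p = 0.049).

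Polycomb proteins keep Hox genes silent and Trithorax proteins keep them active in many tissues, and both lists were taken as possible regulators. Of the 28 Polycomb genes, 1 was called higher and 2 lower after castration, 1 higher and 2 lower in Clu intact than in Nkx intact, and 0 higher and 3 lower in Clu intact than in Nkx castrate. Of all genes, 4.02% and 4.59%, 6.29% and 5%, and 8.82% and 8.1% were called in those directions. The medians of the list were 0.13, -0.21 and -0.25 in that order, against 0.05, -0.008 and -0.003 over all genes. Jarid2, which encodes a partner of the Polycomb methyltransferase complex, was at 73.4 and 75.5 CPM in Nkx intact, at 102 and 157 CPM in Nkx castrate and at 53.8 and 37.9 CPM in Clu intact. Clu intact was lowest and Nkx castrate highest, and the log2 fold change between them was -1.5 ± 0.26 (SE, edgeR adjusted p = 0.0085).

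Of the 18 Trithorax group genes and Hox activators, 1 was higher and 0 lower after castration, 1 higher and 1 lower in Clu intact than in Nkx intact, and 0 higher and 6 lower in Clu intact than in Nkx castrate, with medians of 0.27, -0.22 and -0.39 against the same medians over all genes. The 6 lower, where 8.1% of all genes were lower, were Dot1l, Kdm6b, Kmt2a, Kmt2b, Aff1 and Aff4. Dot1l, which methylates histone H3, was at 458 and 427 CPM in Nkx intact, at 654 and 377 CPM in Nkx castrate and at 156 and 158 CPM in Clu intact. Clu intact was lowest, and the log2 fold change was -1.5 ± 0.26 against Nkx intact and -1.72 ± 0.26 against Nkx castrate (SE, edgeR adjusted p = 0.011 and 0.0047).

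Retinoic acid induces Hox genes in the embryo, and 14 of the 17 genes listed for its synthesis, breakdown and receptors were tested. After castration 2 were called higher and 2 lower. In Clu intact 3 were higher and 1 lower than in Nkx intact, and 4 were higher and 2 lower than in Nkx castrate. The medians of the list were 0.04, 0.39 and -0.04 for these comparisons. Over all genes the shares called were 4.02% and 4.59%, 6.29% and 5%, and 8.82% and 8.1%, with medians of 0.05, -0.008 and -0.003. The 2 higher after castration were Rara and Rxrg and the 2 lower Aldh1a1 and Rxra. Aldh1a1, which encodes an enzyme that makes retinoic acid, was at 288 and 316 CPM in Nkx intact, at 21.3 and 16.3 CPM in Nkx castrate and at 160.0 and 194 CPM in Clu intact. It fell after castration, with a log2 fold change of -4.01 ± 0.22 (SE, edgeR adjusted p = 0.00025). Stra6, which encodes a membrane receptor for retinol uptake, was at 13.0 and 14.1 CPM in Nkx intact, at 9.54 and 5.54 CPM in Nkx castrate and at 61.0 and 77.0 CPM in Clu intact. Clu intact was far above the other groups, with a log2 fold change of 2.35 ± 0.31 against Nkx intact (SE, edgeR adjusted p = 0.0037). The 6 ParaHox and Cdx genes, which are relatives of the Hox genes outside the clusters, were too low to test, summing to 1.63 CPM in Nkx castrate 1, 0.296 CPM in Nkx castrate 2 and 0 in the intact libraries.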

How the data were processed

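For each of the 6 libraries the authors deposited raw counts by gene symbol, whole numbers with differing column totals. STAR 2.7.9a, featureCounts (Subread 2.0.1), FastQC 0.11.9 and the build GRCm39 are named in the submitters' processing notes. Not given in the sources used here are the annotation release, the strand setting and how multiple alignments and molecular identifiers were handled. Per the labels, 2 ng of RNA entered each library, made with a stranded SMARTer Pico kit. In R 4.3.3, edgeR 4.0.16 (filterByExpr, TMM, glmQLFit with 3 group means over all libraries, glmQLFTest, two-sided) tested 13846 genes, with Benjamini-Hochberg adjustment over all of them and no fold minimum. Sums and levels per length carry no test. Intervals and the floor of 3 counts cover counting error only. Exon lengths and overlaps came from GENCODE M21 and promoters from RefSeq, both on an earlier build than the counts. The fit was tested on simulated data. Named with full values were members called in any comparison, Hoxb13 and the 6 with the highest mean CPM. Hoxd8, Hoxb7, Hoxb8, Hoxd10 and Hoxd11 were added after their values were seen, as were the genes beside the clusters. So were the genes of other lists named without values, and Rxrg, Clu, Psca, Krt7, Ly6d, Upk2 and Upk3a. From other lists, up to 4 called genes could be named. Some genes that met these rules are not reported here. The members and lists were chosen with earlier results of these data known. Alternatives were other scaling, other filters, a block for replicate number, a fit of only the groups compared, limma-voom with limma 3.58.1, DESeq2 1.42.0, and each library left out in turn.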

Additional observations from a re-analysis of the deposited data

How the results depend on the processing

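For the 7 members with full values, 21 log2 fold changes were recomputed in 335 alternatives: 292 kept their direction and side of the threshold, 26 passed it newly, 14 lost it and 3 changed sign. The sign changes were in Clu intact against Nkx castrate, for Hoxb13 without Nkx castrate 1 and for Hoxb9 without Nkx castrate 1 and without Clu intact 2; with a library left out the log2 fold change ranged from -0.044 to 0.86 for Hoxb13 and from -0.15 to 0.032 for Hoxb9. The cause was not tested. Counts of called members were small and moved with the method. For Nkx castrate against Nkx intact they were 1 higher and 1 lower with no filter (6.02% and 5.54% of all genes), 2 and 1 with DESeq2 (7.37% and 7.18%), and 0 and 1 with library totals (3.78% and 4.72%). For Clu intact against Nkx intact they were 4 higher with DESeq2 (9.51% of all genes), 1 higher with limma-voom (4.83%), 4 higher and 2 lower with only the groups compared (13.4% and 11.8%), and 1 lower with no filter (6.02%). For Clu intact against Nkx castrate they were 2 higher and 2 lower with no filter (8.96% and 8.72% of all genes), 3 and 3 with DESeq2 (11.8% and 12.5%), 2 higher with limma-voom (9.69%) or library totals (10.4%), and 0 higher with only the groups compared (6.26%). The test among 3 groups called 5 with no filter, 7 with DESeq2 and 1 with limma-voom, beside 22.3%, 29.6% and 17.5% of all genes. Leaving out 1 library, with the lone library left assumed to vary like the other groups, gave 0 to 1 higher and 0 to 2 lower after castration, 0 to 4 and 0 to 2 between the intact groups, 0 to 4 and 0 to 3 for Clu intact against Nkx castrate, and 0 to 8 among 3 groups. The shares of all genes called moved as well in these fits, from 0.482% to 8.22% higher and 0.917% to 9.23% lower after castration, from 1.43% to 12.5% and 1.05% to 10.9% between the intact groups, from 2.78% to 13.5% and 1.8% to 12.4% for Clu intact against Nkx castrate, and from 7.85% to 33.4% among 3 groups.

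Replicate numbers did not count as pairs, as deviations of same-numbered libraries correlated at 0.115, 0.071 and 0.28. With the replicate block, Hoxb13 was called lower after castration (log2 fold change -1.04, edgeR adjusted p = 0.023), Hoxd11 lower in Clu intact than in Nkx castrate, 1 call each beside 5.78% and 9.46% of all genes, and the test among 3 groups called 3 members and 24.2% of all genes.

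The Hoxa sum ratio was 1.05 (DESeq2 size factors), 1.03 (library totals) and 1.28 (without Hoxa10) for Nkx castrate to Nkx intact, 1.61 and 1.89 for Clu intact to Nkx intact (library totals, without Hoxa10), and 1.57 and 1.47 for Clu intact to Nkx castrate. For Hoxa9 to Hoxa13 alone, the ratio of Clu intact to Nkx intact was 1.56, and it was 1.27 without Hoxa13. Without Hoxb13 the Hoxb ratio was 0.948 after castration and 1.14 between the intact groups, and the posterior ratio 0.885 and 1.11. Without Hoxd13 the Hoxd ratio was 1.78 and 1.33. The anterior ratio of Clu intact to Nkx castrate ranged from 1.21 to 4.50 over fits leaving out a library, the highest without Nkx castrate 1. At a minimum of 5 CPM, 10, 12 and 14 members were expressed. With 2 libraries a group, depth limits the members under about 1 CPM, where 1 count is up to 0.0988 CPM.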

Other observations

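The noncoding RNAs of the clusters were mostly low. Of 10 long noncoding RNAs in the table, 6 were tested, and of 6 microRNA genes, 1 was. Of these 7, edgeR called 0 in any comparison, where 4.02% to 8.82% of all genes were called in each direction. Hotair, from the Hoxc cluster, had no count in any library. Hottip, transcribed from the posterior end of Hoxa next to Hoxa13, had 4 and 2 counts in Nkx intact, then 16 and 0 in Nkx castrate and then 45 and 48 in Clu intact. Clu intact was highest, as for Hoxa13, but the log2 fold change against Nkx intact of 3.79 ± 1.48 (SE) had an edgeR adjusted p of 0.15. Hoxa11os, antisense to Hoxa11, had 103 to 252 counts in every library.

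Genes just outside the clusters were looked up after the Hox values had been seen. Of 8, 7 were tested and edgeR called 1, Ttll6, which lies beside the posterior end of Hoxb. Ttll6 had 10 and 1 counts in Nkx intact, then 2 and 2 in Nkx castrate and then 46 and 48 in Clu intact. Only Clu intact passed 1 CPM in both libraries, so its entry into the test rested on the group where it was high. Ttll6 was higher in Clu intact than in Nkx castrate (edgeR adjusted p = 0.034), where 8.82% of all genes were called higher. Evx1, a homeobox gene beyond Hoxa13, had 0 and 6 counts in Nkx intact, then 10 and 2 in Nkx castrate and then 108 and 53 in Clu intact. The Clu intact libraries were the highest, with a log2 fold change against Nkx intact of 4.54 ± 1.31 (SE, edgeR adjusted p = 0.066). Its antisense neighbour Evx1os had 2 and 0, 17 and 0, and 102 and 83 counts, and was called higher in Clu intact than in Nkx intact (edgeR adjusted p = 0.048). For Evx1 and Evx1os too, only Clu intact passed 1 CPM in both libraries, and their entry into the test rested on that group. Reads of Evx1 and Evx1os may not be told apart, as the strand setting is not given in the sources used here. Evx2, beyond Hoxd13, was at 10.1 and 5.14 CPM in Nkx intact and at 7.09 and 2.82 CPM in Clu intact, which overlap.

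Ratios within a library do not depend on scaling to depth, and since they are not corrected for gene length they are compared only between libraries. In the levels above, Hoxd12 and Hoxa13 were higher in Clu intact than in Nkx intact, and Hoxd11 and Hoxb13 were lower. Ratios of these genes restate those differences and are no separate support. The count ratio of Hoxd12 to Hoxd11 was 0 and 0.0156 in Nkx intact, then 0.102 and 0.0752 in Nkx castrate and then 1.35 and 1.86 in Clu intact, with no overlap between groups. That of Hoxa13 to Hoxb13 was 0.0634 and 0.0595 in Nkx intact, then 0.277 and 0.171 in Nkx castrate and then 0.293 and 0.317 in Clu intact. Both Nkx intact libraries were the lowest for each ratio. That of Hoxb13 to Hoxd13 was 1.99 and 2.11 in Nkx intact and then 1.44 and 1.42 in Clu intact, while the castrate libraries, at 0.840 and 2.33, lay on both sides of all the others.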
